A study of Mus musculus with 24 samples.

Results

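The lungs compared here came from mice that drank a water extract (AEAA) of Artemisia argyi, a mugwort, at 1 mg/mL (mid dose, n = 5) or at 0.5 mg/mL (low dose, n = 5) for 28 days and were then given bacterial lipopolysaccharide (LPS). The 10 libraries were chosen by their labels out of 24 in the series. All 10 came from wild-type C57BL/6 mice aged 7 weeks that received LPS into the trachea at 5 mg/kg on day 29, with lungs taken 8 h later, so both groups share the extract and the challenge and differ by label in extract concentration alone. Mice given LPS without extract (n = 5) and control mice (n = 4) give levels for orientation. The protocol gives the controls saline, while their sample entries list the LPS challenge. Another group of 5 mice at 1.5 mg/mL entered the fit and is not described. The labels do not give the amount each mouse drank or which mice shared a cage or a day of work, so p-values measure the spread between mice of a group and whatever else differed among them.

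RNA was sequenced after removal of ribosomal RNA, and the deposited values are TPM, transcript abundances corrected for transcript length and for the size of the library. The number of reads behind a value is unknown. Levels below are TPM divided by a median-of-ratios factor for each library and are called scaled TPM. Differences are mid minus low dose on the scale of log2(scaled TPM + 1), which understates the change of genes at low levels. In bulk lung, fewer cells of a type and less RNA per cell cannot be told apart. The lung label was checked against defining markers: Sftpc, a surfactant protein of type II alveolar cells, averaged 17949 ± 9758 scaled TPM at the mid dose and 18293 ± 11794 at the low dose (SD, n = 5 each). Ager, a receptor of type I alveolar cells, averaged 2062 ± 190.3 at the mid and 1849 ± 313 at the low dose. The labels give male sex, but Xist, the RNA that silences an X chromosome in females, lay between 46.9 and 62.5 scaled TPM at the mid dose and between 46.9 and 64.1 at the low dose, and the Y-linked Ddx3y and Eif2s3y were listed at 0 in all 10 libraries.

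LPS is sensed through CD14 and TLR4 on macrophages and other lung cells, which by way of NF-kB switch on cytokines such as IL-1 beta and chemokines such as CXCL2. The chemokines draw neutrophils out of the blood across the capillary endothelium. Endothelial cells, pericytes and the basement membrane they share with the alveolar epithelium form the barrier that leaks in acute lung injury, and the transcription factors KLF2 and KLF4 are known in endothelium as flow-induced genes with anti-inflammatory roles.

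The comparison asks whether 1 mg/mL left the challenged lung different from 0.5 mg/mL, gene by gene. No gene passed the test. Of 17823 genes tested with limma, 0 (0%) were higher and 0 (0%) lower at the mid dose at a Benjamini-Hochberg adjusted p of 0.05, and the smallest adjusted p was 0.224. At an unadjusted p under 0.05 there were 1163 genes higher (6.53% of those tested) and 1037 lower (5.82%). The 5 mid-dose values lay above all 5 low-dose values for 305 genes (1.71%) and below them for 276 genes (1.55%). The median difference was 0.00, the quartiles were -0.16 and 0.15, and the median standard error of a gene was 0.17. A difference of 1 or more was reached upwards by 50 genes and downwards by 120. The same model with a quality weight estimated for each library called 192 genes higher and 249 lower, TPM without the factors gave 1 gene higher, and a fit to the 10 libraries alone gave 1 gene higher.

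The genes higher at the mid dose with the smallest p were led by Klf2, the endothelial transcription factor. Klf2 had 267, 373, 284, 272 and 343 scaled TPM at the mid dose, against 115, 198, 210.3, 176 and 192 at the low dose. All 5 mid-dose values lay above all 5 low-dose values. The means were 308 ± 47.6 at the mid and 178 ± 37.4 at the low dose (SD, n = 5 each), the difference was 0.80 ± 0.16 (SE), and the adjusted p in limma was 0.224. In TPM without the factors, a scale on which the median of all genes is shifted by 0.15, the difference was 0.98 and the adjusted p 0.024, the 1 call of that fit. Klf2 averaged 262 ± 23.4 scaled TPM in the 5 lungs given LPS alone and 295 ± 55.7 in the 4 control lungs, so the low-dose mean was the lowest of these 4 groups.

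The start of Klf2 is shown because this gene had the smallest p among the increases. It spans 250 bases before and 50 after the annotated start on the plus strand at chr8:72318812-72319111 (RefSeq, GRCm38.p6; the deposited values were made on GRCm39), 5′ to 3′, and the capitals mark CTAAATTTAG, a form of the motif bound by MEF2 factors.
Klf2: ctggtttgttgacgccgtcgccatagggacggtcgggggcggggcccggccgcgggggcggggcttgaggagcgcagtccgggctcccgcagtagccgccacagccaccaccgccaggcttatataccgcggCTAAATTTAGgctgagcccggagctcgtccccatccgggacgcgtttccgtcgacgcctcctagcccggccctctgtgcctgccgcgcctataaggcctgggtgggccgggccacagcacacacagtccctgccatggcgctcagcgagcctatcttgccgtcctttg
The capitals begin 118 bases before the annotated start. The same letters, which read alike on both strands, occur in 13 of 32851 promoter windows of this length (0.0396%), and the general MEF2 motif (CTA, any 4 letters A or T, then TAG) occurs on either strand in 183 of them (0.557%). A match of letters is a description and not a site of binding shown in these lungs.

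The other 5 increases with the smallest p each had an adjusted p of 0.224 and no overlap between the doses. Ptprk, a receptor-type tyrosine phosphatase, lay between 32.1 and 34.5 scaled TPM at the mid dose and between 22.3 and 29.4 at the low dose, a difference of 0.33 ± 0.07. Arid1a, a subunit of the BAF chromatin remodelling complex, averaged 28.6 ± 3.24 scaled TPM at the mid dose and 21.2 ± 1.54 at the low dose, a difference of 0.41 ± 0.09. Sipa1l3, a protein of epithelial cell polarity, averaged 44.1 ± 7.503 at the mid and 27.9 ± 4.303 at the low dose, a difference of 0.63 ± 0.14. Prrc2a, an RNA-binding protein, averaged 142 ± 14.2 at the mid and 112 ± 6.75 at the low dose, a difference of 0.33 ± 0.08. Fam193a averaged 14.6 ± 2.47 at the mid and 9.97 ± 0.7095 at the low dose, a difference of 0.50 ± 0.12. The longest annotated transcripts of these 5 genes run from 5536 to 8187 nt, and that of Klf2 has 1847 nt. Once the trend across genes with GC content was removed, the difference was 0.36 for Ptprk, 0.31 for Arid1a and 0.49 for Sipa1l3. It was 0.17 for Prrc2a, 0.43 for Fam193a and 0.64 for Klf2. Once the trend with transcript length was removed, the difference was 0.23 for Ptprk, 0.29 for Arid1a and 0.52 for Sipa1l3. It was 0.22 for Prrc2a, 0.415 for Fam193a and 0.85 for Klf2.

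Foxf1, Notch3 and Klf4 are described next. Foxf1 and Notch3 were picked after their values had been seen, and Klf4 belongs to the immediate early list, which is named in part. Foxf1, a transcription factor of lung endothelium and mesenchyme, had 179.8, 146, 156, 159 and 166 scaled TPM at the mid dose, against 86.1, 104, 101, 108 and 102 at the low dose. The groups did not overlap and differed by 0.68 ± 0.17 (adjusted p 0.224), with 166 ± 36.3 scaled TPM under LPS alone and 161 ± 23.7 in controls. Notch3, a receptor of pericytes and smooth muscle, averaged 29.1 ± 3.19 scaled TPM at the mid dose and 19.02 ± 2.83 at the low dose without overlap, a difference of 0.59 ± 0.18 (adjusted p 0.224). Klf4, the close relative of Klf2, had 112, 134, 142, 115 and 215 scaled TPM at the mid dose, against 39.1, 83.6, 67.5, 77.5 and 117 at the low dose. Its difference of 0.93 ± 0.24 (adjusted p 0.224) was larger than that of Klf2, but low-dose replicate 5 lay above mid-dose replicates 1 and 4.

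**Figure D1:**
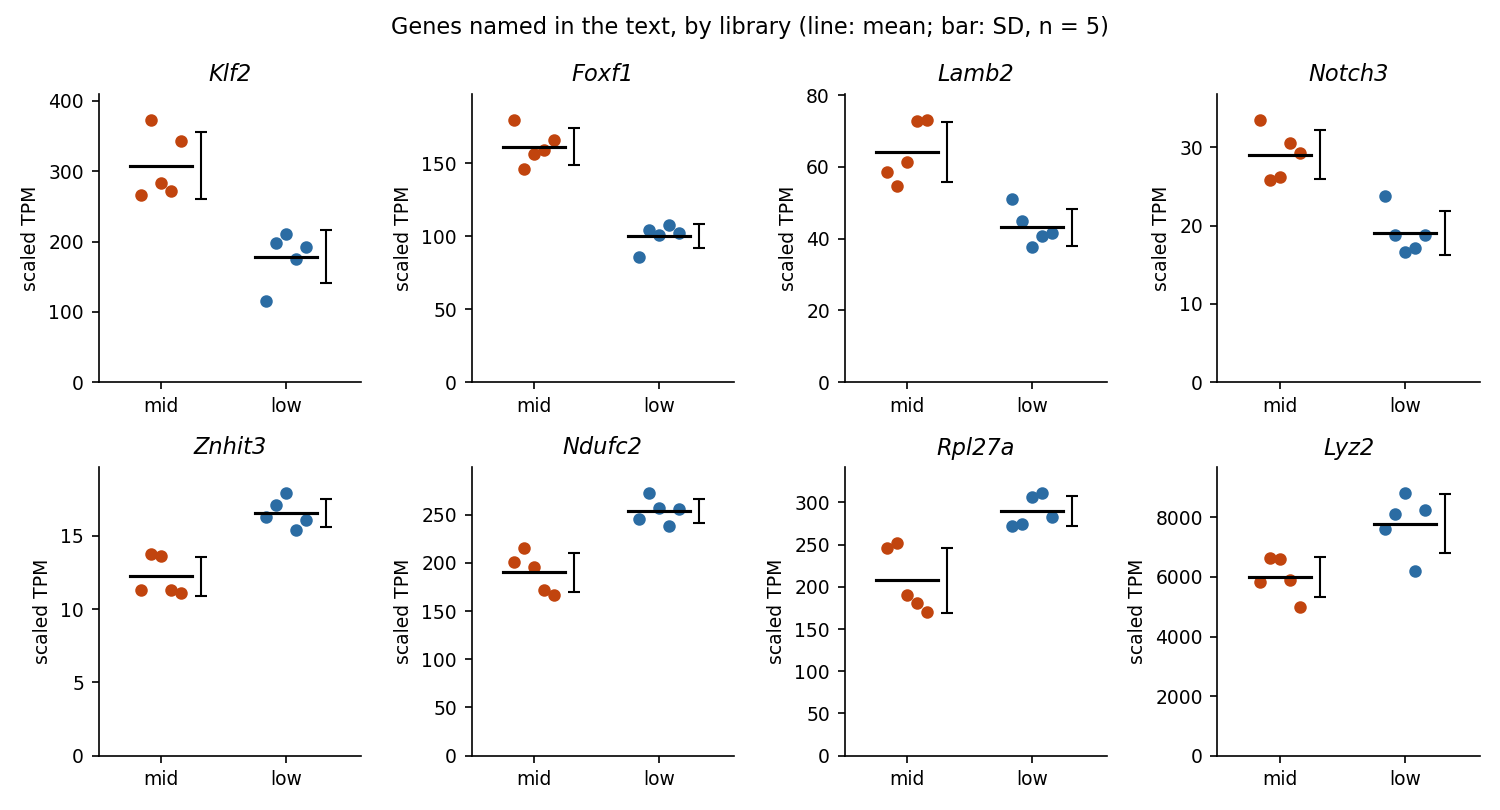
Scaled TPM (vertical axes) of 8 genes in each mid-dose and low-dose library; each point is a lung, the line is the mean and the bar the SD (n = 5). Klf2, Foxf1, Lamb2 and Notch3 are higher at the mid dose without overlap, Znhit3, Ndufc2 and Rpl27a are lower without overlap, and Lyz2 is lower with overlap; none passed the test across all genes.

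The 6 decreases with the smallest p included factors of ribosomes and of mitochondria. Znhit3, a zinc finger protein of snoRNP assembly, had 11.3, 13.8, 13.6, 11.3 and 11.1 scaled TPM at the mid dose, against 16.3, 17.1, 17.9, 15.4 and 16.1 at the low dose, a difference of -0.41 ± 0.09. Ndufc2, a subunit of respiratory complex I, had 201, 216, 196, 172 and 167 scaled TPM at the mid dose, against 246, 272, 257, 238 and 256 at the low dose, a difference of -0.42 ± 0.10. Rpl27a, a protein of the large ribosomal subunit, had 246, 252, 189.8, 181 and 170.0 scaled TPM at the mid dose, against 273, 275, 306, 311 and 283 at the low dose, a difference of -0.49 ± 0.12. The groups overlapped for none of these 3 genes, and mid-dose replicates 4 and 5 had the lowest values of all 3. Nsa2, a ribosome assembly factor, averaged 61.9 ± 3.48 scaled TPM at the mid dose and 78.3 ± 2.09 at the low dose (-0.34). Sdhaf4, an assembly factor of complex II, averaged 26.2 ± 2.83 at the mid and 35.1 ± 2.07 at the low dose (-0.42). Pigbos1, a small mitochondrial outer membrane protein, averaged 32.2 ± 8.69 at the mid and 51.5 ± 5.16 at the low dose (-0.70). All 6 had an adjusted p of 0.224 and no overlap.

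Set beside LPS alone, the mid-dose levels of several of these genes lay closer than the low-dose levels. Both contrasts use the same LPS libraries and each shares a dose with the main comparison, so the values only place the levels. The 5 lungs given LPS alone were not uniform either: the chemokine gene Cxcl2 averaged 89.3 ± 108 scaled TPM among them (SD). Ptprk averaged 33.8 ± 2.87 scaled TPM under LPS alone, from which the mid dose differed by -0.03 (adjusted p 1.00) and the low dose by -0.36 (adjusted p 0.0159, limma). For Rpl27a the mid dose differed from LPS alone by 0.13 (adjusted p 1.00) and the low dose by 0.62 (adjusted p 0.0142). For Klf2 the mid dose differed by 0.22 (adjusted p 1.00) and the low dose by -0.58 (adjusted p 0.065). Across all genes, the mid dose against LPS alone gave 0 genes higher (0%) and 0 lower (0%) with limma, with 532 at an unadjusted p under 0.05 and a smallest adjusted p of 0.177. The low dose against LPS alone gave 289 higher (1.62%) and 87 lower (0.488%), with 2826 at an unadjusted p under 0.05.

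The cytosolic ribosomal proteins held the most genes without overlap among the 43 lists examined. All 38 tested members were lower on average at the mid dose, with a median difference of -0.41 against 0.00 over all genes. None passed the test, 28 had an unadjusted p under 0.05 (5.82% over all genes), and 19 were lower without overlap (1.55% over all genes). Rplp1, an acidic protein of the ribosomal stalk, had 2884, 3047, 2261, 2011 and 2105 scaled TPM at the mid dose, against 3205, 3674, 3689, 4143 and 3852 at the low dose, a difference of -0.61 ± 0.18 (adjusted p 0.224) without overlap. Rps27, a protein of the small subunit, averaged 3494 ± 489 scaled TPM at the mid dose and 4538 ± 359.6 at the low dose (-0.38 ± 0.12, adjusted p 0.231), with overlap at mid-dose replicate 1. The mean log2 deviation of the list from its level over all 24 libraries was -0.10, -0.01, -0.32, -0.40 and -0.33 in mid-dose replicates 1 to 5 and 0.00, 0.20, 0.18, 0.21 and 0.20 in low-dose replicates 1 to 5. Mid-dose replicate 2 and low-dose replicate 1 nearly touched, while mid-dose replicates 3, 4 and 5 lay well below every low-dose library. The median of the list was -0.23 in TPM without the factors and -0.26 once the trend with transcript length was removed. Ribosomal protein genes have near-identical processed copies among which the quantification could split reads, so values of single members are uncertain.

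The starts of Rps27 and Rpl27a are shown because transcripts of ribosomal proteins are known for a run of pyrimidines at their 5′ end. The 30 bases run from 15 before to 15 after the annotated start (RefSeq, GRCm38.p6), at chr3:90213634-90213663 on the minus strand for Rps27 and at chr7:109519180-109519209 on the plus strand for Rpl27a, and the capitals mark the run of C and T, which in Rpl27a goes on beyond the bases shown.
Rps27: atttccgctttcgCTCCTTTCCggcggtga
Rpl27a: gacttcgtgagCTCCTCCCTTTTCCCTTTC
A run of at least 8 such letters that reaches within 10 bases of the start was present in 10 of the 26 ribosomal list members with a promoter entry (38.5%) and in 3651 of 27025 genes of the promoter table (13.5%).

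The nuclear genes of oxidative phosphorylation lay lower too. Of 36 tested members, 33 were lower and 3 higher on average at the mid dose, with a median of -0.43. That median was -0.25 in TPM without the factors and -0.28 once the length trend was removed. None passed, 23 had an unadjusted p under 0.05 (5.82% over all genes) and 7 were lower without overlap (1.55% over all genes). Cox6a1, a subunit of cytochrome c oxidase, averaged 584 ± 69.02 scaled TPM at the mid dose and 745 ± 64.05 at the low dose (-0.35 ± 0.17, adjusted p 0.401). Atp5f1e, a subunit of ATP synthase, averaged 513 ± 103 at the mid and 731 ± 98.9 at the low dose (-0.52 ± 0.21, adjusted p 0.32). All 13 transcripts of the mitochondrial genome were lower on average (median -0.27), 2 of them at an unadjusted p under 0.05 (5.82% over all genes) and 0 without overlap (1.55% over all genes). Their median was -0.10 in TPM without the factors, -0.13 with the GC trend removed and -0.18 with the length trend removed. mt-Co1, a cytochrome c oxidase subunit, averaged 7778 ± 950.4 at the mid and 9315 ± 667 at the low dose (-0.26 ± 0.16). mt-Atp8, an ATP synthase subunit, averaged 19634 ± 1663 at the mid and 21158 ± 1773 at the low dose (-0.11 ± 0.13); the sign for mt-Atp8 turned in TPM without the factors and once the length or GC trend was removed.

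Across the transcriptome the difference followed transcript length and base composition. Length and GC content were those of the longest annotated transcript, known for 16407 of the 17823 genes (92.1%). In 10 equal bins from short to long, the median difference was -0.17, -0.11, -0.04, -0.02, -0.01, 0.03, 0.03, 0.05, 0.08 and 0.12. In the bin of shortest transcripts (median 564 nt) 33.2% of genes were higher at the mid dose, and in the bin of longest (median 7848 nt) 72.7% were. Genes without overlap were 6 higher and 70 lower in the shortest bin, and 87 higher and 7 lower in the longest. By GC content the median difference was -0.14 in the lowest bin (median 39.5% GC) and 0.16 in the highest (59.5% GC), with 19.4% and 74.4% of genes higher. When genes were split into 3 equal classes of each property, the 1353 long and GC-rich genes held 129 higher and 0 lower without overlap, and the 1320 short and GC-poor genes held 2 higher and 53 lower. Spearman's rho across genes, which share the same 10 libraries and are not independent, was 0.31 between the difference and length and 0.36 between the difference and GC content, and length and GC content had a rho of -0.19.

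**Figure D2:**
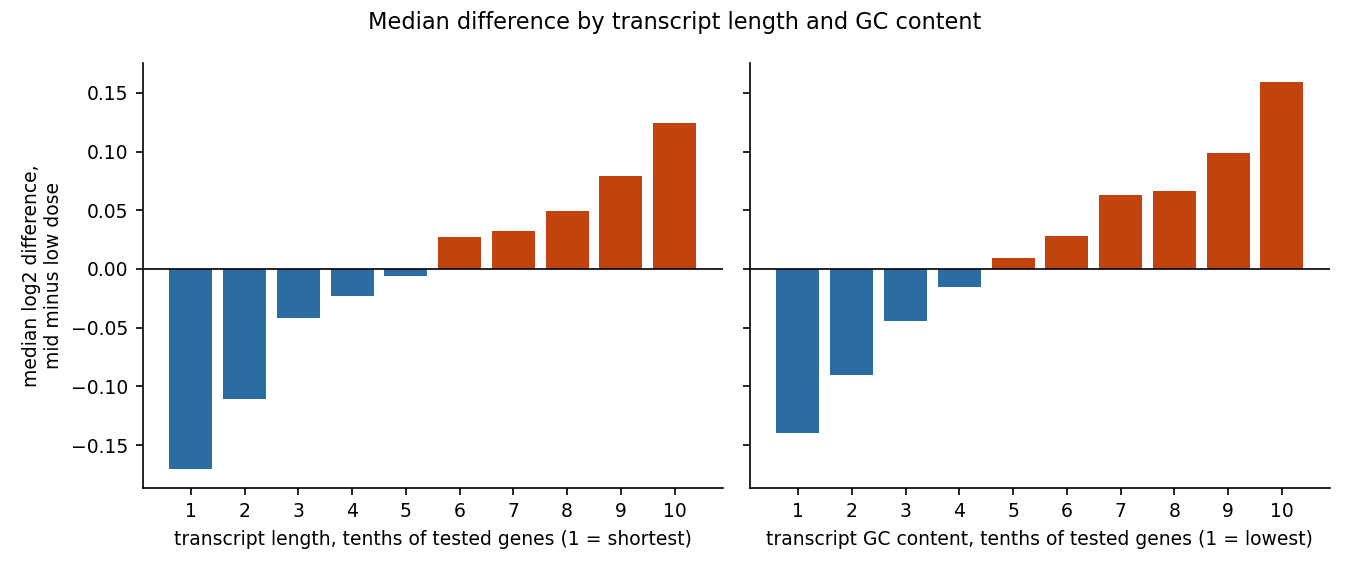
Median log2 difference, mid minus low dose (vertical axis), in 10 equal bins of tested genes by length of the longest annotated transcript and by its GC content. The median goes up along both axes, between -0.17 and 0.12 for length and between -0.14 and 0.16 for GC content.

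The same shift was also measured over whole libraries, which is no independent support for it. The mean transcript length weighted by TPM was 2160, 2202, 2259, 2392 and 2348 nt in mid-dose replicates 1 to 5, against 2067, 2017, 2071, 2140 and 2125 nt in low-dose replicates 1 to 5. All 5 mid-dose libraries lay above all 5 low-dose libraries. The means were 2272 ± 97.2 nt at the mid dose and 2084 ± 49.4 nt at the low dose (SD, n = 5 each). The two-sided exact permutation p was 0.00794, the smallest that 252 assignments can give, or 0.0159 after Benjamini-Hochberg adjustment over 6 library measures. The 6 include measures added after the data were seen, which restate this shift. Adjusted over the planned measures alone, this p and that of the library factor below would be larger. In a measure added after the data were seen, without Scgb1a1, the short and very abundant secretoglobin of airway club cells, the means were 2368 ± 79.6 nt at the mid dose and 2201 ± 25.2 nt at the low dose with the same exact p. Also added after the trend across bins was seen, and given as a description only, the median log2 deviation of the shortest bin minus that of the longest was -0.21 ± 0.15 at the mid dose and 0.12 ± 0.09 at the low dose (SD, n = 5 each). Lungs given LPS alone had a weighted length of 2315 ± 71.9 nt (n = 5) and control lungs 1606 ± 99.2 nt (n = 4), with Scgb1a1 included. In controls Scgb1a1 took 28.25 ± 5.18% of TPM. Without it the weighted length was 2411 ± 56.6 nt under LPS alone and 2060 ± 28.2 nt in controls.

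The factor of a library also differed, at 1.14 ± 0.08 for the mid dose and 1.00 ± 0.05 for the low dose (two-sided exact permutation p 0.0159, n = 5 each, and 0.0238 adjusted over the same 6 measures). The TPM of every library add up to the same total, so the factor depends on the same composition and is no independent support either. Genes at 1 TPM or more numbered 16325 ± 199 at the mid dose and 16061 ± 200 at the low dose (SD, n = 5 each; exact p 0.0873, 0.105 adjusted), a difference that did not pass. Scgb1a1 took 4.99 ± 1.49% of TPM at the mid dose and 6.67 ± 1.57% at the low dose (exact p 0.119 before and after adjustment, n = 5 each), which did not pass either. The read number, RNA integrity and extraction day of each library are not given in the sources used here, and their part in the shift was not tested.

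**Figure D3:**
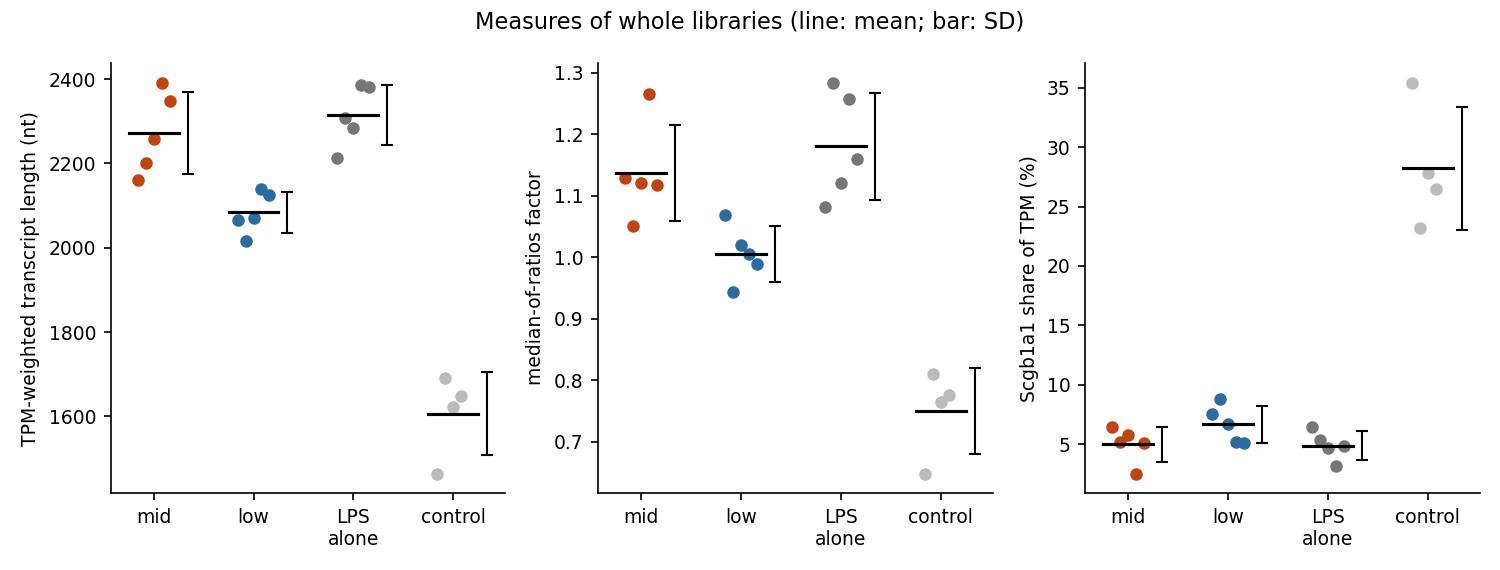
TPM-weighted mean transcript length (nt), median-of-ratios factor and Scgb1a1 share of TPM (%) of each library (points) for the mid dose, the low dose, LPS alone (n = 5 each) and controls (n = 4); lines are means and bars SD. Mid-dose libraries lie between 2160 and 2392 nt, above the low-dose libraries at 2017 to 2140 nt. Controls average 1606 nt with Scgb1a1 included and 2060 nt without it (not drawn).

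Basement membrane genes were all higher on average at the mid dose. The 21 tested members had a median difference of 0.37. None passed, 11 had an unadjusted p under 0.05 (6.53% over all genes), and 1 was free of overlap (1.71% over all genes). That gene was Lamb2, a laminin beta chain, with 58.5, 54.8, 61.3, 72.8 and 73.2 scaled TPM at the mid dose, against 51.1, 44.8, 37.7, 40.7 and 41.5 at the low dose (0.56 ± 0.15, adjusted p 0.224). Lama5, a laminin alpha chain of epithelial and endothelial membranes, had 43.2, 43.1, 41.6, 57.4 and 83.7 scaled TPM at the mid dose, against 28.3, 41.7, 29.9, 43.8 and 39.8 at the low dose (0.51 ± 0.16, adjusted p 0.224). Mid-dose replicate 5 was the highest for Lama5, and low-dose replicate 4 lay above 3 mid-dose lungs. The mean log2 deviation of the list was 0.15, 0.14, 0.30, 0.34 and 0.42 in mid-dose replicates 1 to 5 and -0.12, 0.06, -0.34, -0.10 and -0.06 in low-dose replicates 1 to 5, and these 5 and 5 values did not overlap. The summed scaled TPM of the list did overlap, at 913 to 1746 at the mid dose and 700.1 to 1142 at the low dose.

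Further laminin chains lay on the same side. Their differences were 0.50 ± 0.22 for Lama2, 0.39 ± 0.29 for Lama3, 0.16 ± 0.12 for Lama4, 0.30 ± 0.10 for Lamb1, 0.32 ± 0.14 for Lamb3 and 0.21 ± 0.09 for Lamc1. Lamc3 had a difference of 0.79 ± 0.27 at a low level of 6.74 ± 2.33 scaled TPM at the mid dose and 3.52 ± 1.63 at the low dose. Col4a1 and Col4a2, the collagen IV chains common to all basement membranes, had wide standard errors: Col4a1 averaged 320.2 ± 142 scaled TPM at the mid dose and 221 ± 84.7 at the low dose (0.51 ± 0.46). Col4a2 averaged 284 ± 127 at the mid and 194 ± 70.4 at the low dose (0.51 ± 0.46). Col4a3 and Col4a4, collagen IV chains of the alveolar membrane, differed by 0.44 ± 0.16 and 0.42 ± 0.14. The proteoglycans Hspg2 (perlecan) and Agrn (agrin) differed by 0.45 ± 0.17 and 0.25 ± 0.11. Lamb2 and Lama5 are long, GC-rich transcripts (5629 nt and 58.8% GC for Lamb2, 11388 nt and 59.9% GC for Lama5), and the median of the list was 0.26 once the length trend was removed and 0.30 once the GC trend was removed.

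Most listed markers of vessel and stroma lay on the same side, with exceptions given below. Of 17 endothelial markers 15 were higher on average (median 0.26), 4 of them at an unadjusted p under 0.05 (6.53% over all genes). The median was 0.23 once the length trend was removed and 0.21 once the GC trend was removed. Cldn5, a tight junction claudin, averaged 439 ± 57.9 scaled TPM at the mid dose and 364 ± 57.4 at the low dose (0.27 ± 0.11, adjusted p 0.31). Pecam1, an adhesion molecule of endothelial contacts, averaged 389 ± 61.9 at the mid and 322 ± 37.97 at the low dose (0.26 ± 0.16, adjusted p 0.515). Cdh5 and Erg were picked after their values had been seen. Cdh5, the cadherin of endothelial junctions, had 308, 277, 279, 349.5 and 310.1 scaled TPM at the mid dose, against 286, 215, 221, 191 and 201 at the low dose (0.46 ± 0.14, adjusted p 0.224), with overlap through low-dose replicate 1 alone. Erg, an endothelial transcription factor, lay between 50.95 and 53.9 scaled TPM at the mid dose and between 40.7 and 50.5 at the low dose. It was the 1 endothelial marker free of overlap (1.71% over all genes), with a difference of 0.20 ± 0.13 (adjusted p 0.555).

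Among 15 smooth muscle and pericyte markers 10 were higher and 5 lower (median 0.15). The contractile gene Acta2 averaged 223 ± 79.7 scaled TPM at the mid dose and 224 ± 15.7 at the low dose (-0.08 ± 0.28). Tagln averaged 167 ± 45.01 at the mid and 178 ± 11.9 at the low dose (-0.14 ± 0.25). Both genes turned sign in TPM without the factors. Pdgfrb and Cspg4 were picked after their values had been seen: Pdgfrb, the PDGF receptor of pericytes, averaged 51.01 ± 7.47 scaled TPM at the mid dose and 36.6 ± 4.43 at the low dose (0.46 ± 0.12, adjusted p 0.224). Cspg4, the NG2 proteoglycan, averaged 9.07 ± 2.14 at the mid and 5.95 ± 0.701 at the low dose without overlap (0.52 ± 0.15, adjusted p 0.224). Of 16 fibroblast markers 13 were higher (median 0.34). Inmt, a methyltransferase abundant in lung fibroblasts, averaged 1403 ± 707 scaled TPM at the mid dose and 1161 ± 737 at the low dose (0.35 ± 0.55). Svep1, a large matrix protein picked after its values had been seen, averaged 10.6 ± 1.68 at the mid and 7.22 ± 0.721 at the low dose (0.49 ± 0.13, adjusted p 0.224). Of 20 genes of fibrillar collagen and elastic fibre 14 were higher (median 0.18). Mfap4, an elastic fibre protein, averaged 394 ± 64.4 at the mid and 315 ± 44.6 at the low dose (0.32), and Col3a1, collagen III, 204 ± 45.7 at the mid and 246 ± 71.9 at the low dose (-0.24).

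The epithelial lists were mixed. Junction genes were higher in 17 of 19 (median 0.21). The catenin Ctnna1 averaged 244 ± 19.1 scaled TPM at the mid dose and 211 ± 19.2 at the low dose (0.21), and Ctnnb1 438 ± 49.8 at the mid and 465 ± 65.2 at the low dose (-0.08). Type I alveolar markers were higher in 12 of 13 (median 0.21), with Ager at 0.17 and Cav1, caveolin, at 0.05. Type II markers were higher in 9 of 14 (median 0.12), with a difference of 0.05 ± 0.54 for Sftpc and -0.23 ± 0.20 for Sftpa1, another surfactant protein, at 2942 ± 726 at the mid and 3456 ± 899 at the low dose. Ciliated cell markers were higher in 10 of 14 (median 0.13). The tubulin Tuba1a averaged 546 ± 99.5 at the mid and 551 ± 65.1 at the low dose, and the tubulin-binding Tppp3 378 ± 122 at the mid and 366 ± 181 at the low dose. Airway secretory markers were split, 7 higher and 7 lower. Scgb1a1 averaged 44501 ± 14435 scaled TPM at the mid dose and 66629.8 ± 17094 at the low dose (-0.63 ± 0.29, adjusted p 0.388), and Cbr2, a carbonyl reductase, 2258 ± 946 at the mid and 2147 ± 1021 at the low dose (0.12 ± 0.48). Mesothelial markers were lower in 8 of 10 (median -0.24). The keratin Krt19 averaged 326 ± 93.6 at the mid and 252 ± 36.4 at the low dose (0.34), and Msln, mesothelin, 38.01 ± 17.7 at the mid and 40.3 ± 8.23 at the low dose (-0.16).

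Inflammatory genes varied more within each dose than between doses. Cxcl2, the neutrophil chemokine, picked after its values had been seen, had 0.4604, 432, 133, 0.316 and 225 scaled TPM at the mid dose, against 0.599, 283, 336, 282 and 298 at the low dose in replicates 1 to 5. Mid-dose replicates 1 and 4 and low-dose replicate 1 thus lay near the control level of 0.2202 ± 0.113 (n = 4), although the labels give all 10 mice LPS. The difference of Cxcl2 was -1.80 ± 2.12 (adjusted p 0.784). Not all genes of these 3 libraries lay near the control level. The cystine transporter Slc7a11 had 11.2, 13.95 and 6.49 scaled TPM there, against 0.254 ± 0.0424 in controls. Scgb1a1 had 56978, 19837 and 70804 there, against 384622 ± 112855 in controls. Why these lungs differed from the other challenged lungs was not tested. All 21 cytokines and chemokines tested were lower on average at the mid dose (median -1.21), with 0 at an unadjusted p under 0.05 (5.82% over all genes). Without those 3 libraries the median of the list was -0.27. It was -2.05 without low-dose replicate 1, -0.49 without mid-dose replicate 1 and -0.40 without mid-dose replicate 4. Il1b, the gene of IL-1 beta, had 20.3, 895, 227, 8.31 and 393 scaled TPM at the mid dose, against 29.3, 334, 548, 396 and 592 at the low dose, and Ccl3, a chemokine of macrophages, averaged 197 ± 232 at the mid and 353 ± 197 at the low dose; both were low in the same 3 libraries.

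**Figure D4:**
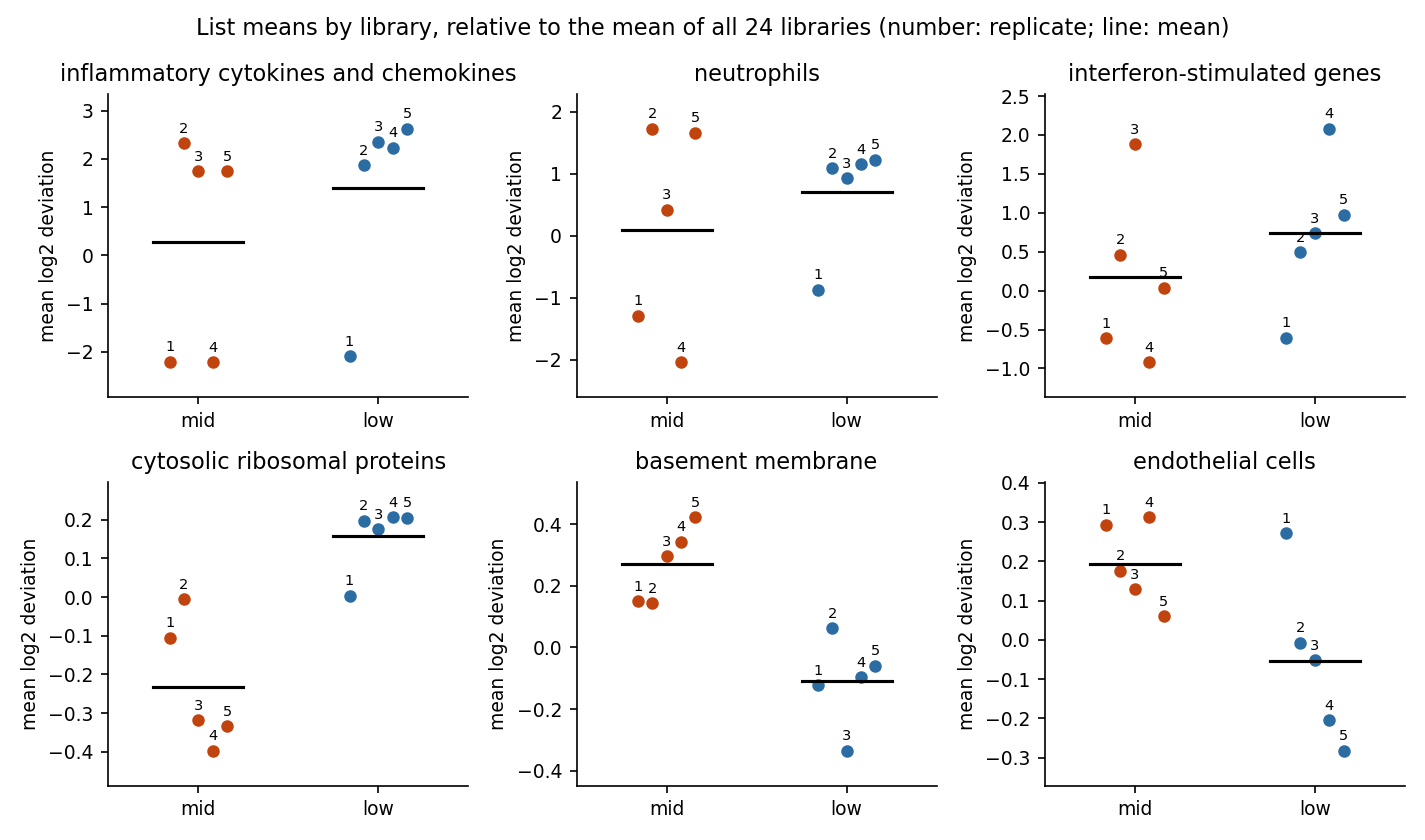
Mean log2 deviation of the members of 6 lists from their level over all 24 libraries (vertical axes) in each mid-dose and low-dose library, with replicate numbers; lines are means. For cytokines, mid-dose replicates 1 and 4 and low-dose replicate 1 lie near -2 and the other 7 libraries above 1, whereas ribosomal proteins separate the doses, with mid-dose values from -0.40 to -0.01 and low-dose values from 0.00 to 0.21.

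Neutrophil markers were low in the same 3 libraries. Of 18 tested, 16 were lower on average at the mid dose (median -0.62), and without the 3 libraries the median was 0.18. Lcn2, a defence protein of neutrophils and epithelium, had 209, 10527, 5547, 212 and 11556 scaled TPM at the mid dose, against 203, 9590.0, 3999.6, 8343 and 10926 at the low dose (-0.91 ± 1.58). S100a9, a calcium-binding protein of neutrophils, averaged 1595 ± 1708 scaled TPM at the mid dose and 1666 ± 598 at the low dose (-0.97 ± 1.12). In mid-dose replicates 1 and 4 and low-dose replicate 1, S100a9 had 372, 94.35 and 785 scaled TPM, against 101.5 ± 17.9 in controls. The differences of Lcn2 and S100a9 were 0.19 and 0.17 without the 3 libraries. The summed scaled TPM of the list ran from 470.0 to 18344 at the mid dose and from 1738 to 15567 at the low dose.

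Of 26 genes that sense LPS or belong to NF-kB signalling, 9 were higher and 17 lower (median -0.05, and 0.12 in TPM without the factors). The co-receptor Cd14 averaged 305 ± 269 scaled TPM at the mid dose and 342 ± 179 at the low dose (-0.48 ± 0.81). Nfkbia, the inhibitor that NF-kB induces, averaged 291 ± 177 at the mid and 293 ± 114 at the low dose (-0.11 ± 0.49). All 24 interferon-stimulated genes were lower on average (median -0.54, and -0.28 without the 3 libraries), 0 of them at an unadjusted p under 0.05 (5.82% over all genes). The ubiquitin-like Isg15 averaged 132 ± 121 at the mid and 228 ± 159.5 at the low dose, and the GTPase Gbp2 131 ± 191 at the mid and 207 ± 189 at the low dose. All 11 inflammasome and pyroptosis genes were lower on average (median -0.60, and -0.31 without the 3 libraries). Ninj1, which ruptures the membrane, averaged 75.3 ± 43.3 scaled TPM at the mid dose and 97.5 ± 42.6 at the low dose. The pore-forming Gsdmd averaged 52.3 ± 16.9 at the mid and 64.05 ± 19.4 at the low dose. Casp1 and Il18, picked after their values had been seen, are the protease that activates IL-1 beta and another of its substrates: Casp1 averaged 11.2 ± 5.48 at the mid and 17.98 ± 6.85 at the low dose (-0.67 ± 0.32, adjusted p 0.398) and Il18 11.9 ± 3.43 at the mid and 18.3 ± 4.73 at the low dose (-0.60 ± 0.24, adjusted p 0.326).

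Markers of monocytes and macrophages were lower in 18 of 19 (median -0.44), 3 of them at an unadjusted p under 0.05 (5.82% over all genes), and the median was -0.25 without the 3 libraries. Lyz2, the lysozyme of myeloid cells, had 5832, 6619.8, 6611, 5905 and 4984 scaled TPM at the mid dose, against 7595, 8097, 8811, 6213 and 8255 at the low dose (-0.38 ± 0.12, adjusted p 0.231), with overlap through low-dose replicate 4 alone. Apoe, a lipid carrier of macrophages, averaged 660.4 ± 131 at the mid and 707 ± 288 at the low dose (-0.04 ± 0.22) and turned sign in TPM without the factors. Ccr2 and Ms4a7 were picked after their values had been seen: Ccr2, the chemokine receptor of recruited monocytes, averaged 15.4 ± 5.51 scaled TPM at the mid dose and 29.5 ± 10.6 at the low dose (-0.90 ± 0.40, adjusted p 0.375). Ms4a7, a macrophage membrane protein, averaged 4.79 ± 3.72 at the mid and 11.4 ± 6.31 at the low dose (-1.17 ± 0.40, adjusted p 0.254).

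Alveolar macrophage markers were lower in 16 of 17 (median -0.30). The chitinase-like Chil3 averaged 623 ± 339.8 scaled TPM at the mid dose and 703 ± 93.6 at the low dose, and the fatty acid binding protein Fabp5 265 ± 130.1 at the mid and 342 ± 127 at the low dose. MHC class II genes were lower in 11 of 11 (median -0.23). The invariant chain Cd74 averaged 1574 ± 349 at the mid and 1693 ± 301 at the low dose, and H2-Aa 481 ± 135 at the mid and 571 ± 118 at the low dose. MHC class I and immunoproteasome genes were lower in 13 of 16 (median -0.19, but -0.02 without the 3 libraries and 0.02 without low-dose replicate 4). B2m, the light chain, averaged 3149.7 ± 1312 at the mid and 4118 ± 1497 at the low dose, and H2-K1 1613 ± 577 at the mid and 1741 ± 578 at the low dose. In TPM without the factors the medians were -0.13 for alveolar macrophage markers, -0.05 for MHC class II genes and -0.02 for MHC class I genes. None of these 3 lists held a gene without overlap (1.71% higher and 1.55% lower over all genes), and lists of this size would hold few or none at those shares.

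**Figure D5:**
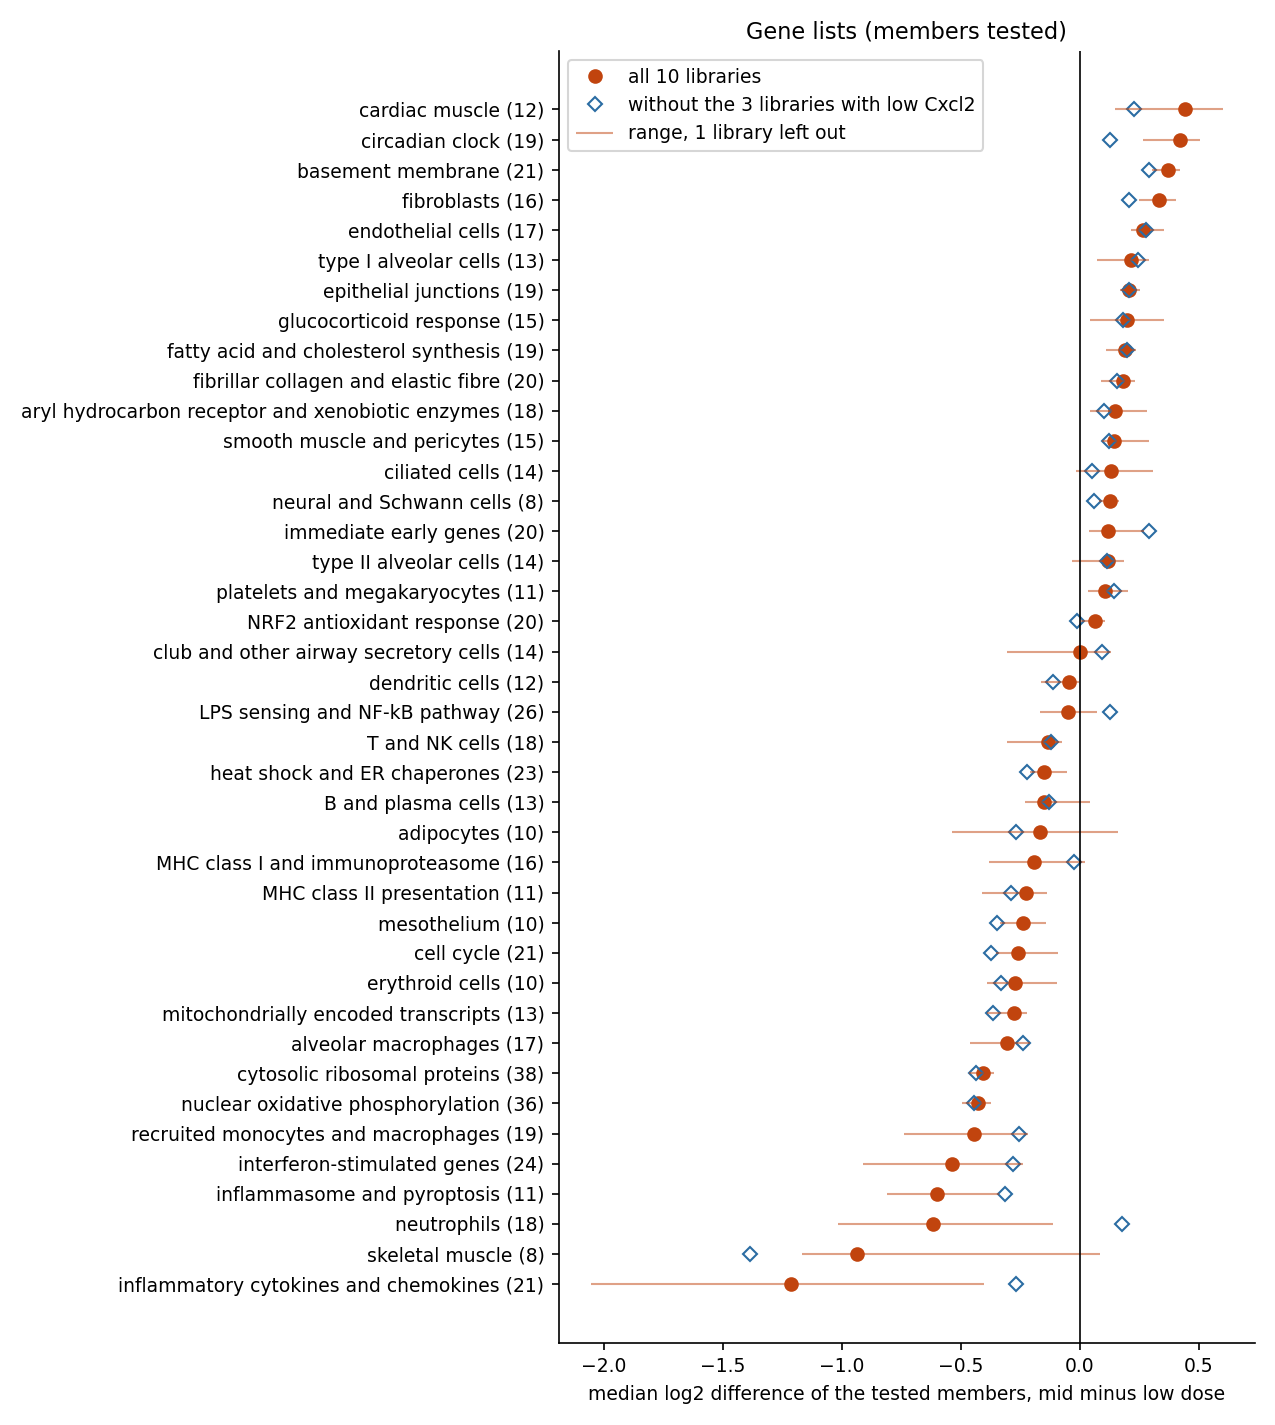
Median log2 difference, mid minus low dose (horizontal axis), of the tested members of lists with 8 or more of them: filled circles use all 10 libraries, lines span the values as single libraries are left out, and open diamonds leave out mid-dose replicates 1 and 4 and low-dose replicate 1. Cytokines lie at -1.21 with all libraries and at -0.27 without the 3, neutrophil markers at -0.62 and 0.18, and ribosomal proteins at -0.41 and -0.43.

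Most clock genes were higher at the mid dose on average, among them the 3 period genes. Of 19 clock genes 12 were higher and 7 lower (median 0.42), with 5 higher (6.53% over all genes) and 1 lower (5.82% over all genes) at an unadjusted p under 0.05 and none past the test. Per2, a period gene of the repressor complex, had 10.5, 7.92, 9.88, 11.9 and 16.2 scaled TPM at the mid dose, against 4.13, 5.91, 8.199, 6.66 and 5.66 at the low dose (0.78 ± 0.23, adjusted p 0.224), and the ranges met only at mid-dose replicate 2 and low-dose replicate 3. Its partner Per1 averaged 40.9 ± 14.6 scaled TPM at the mid dose and 20.4 ± 14.4 at the low dose (1.16 ± 0.41, adjusted p 0.258). Per3 averaged 9.67 ± 3.17 at the mid and 5.92 ± 2.48 at the low dose (0.64 ± 0.36). The cryptochrome Cry2 averaged 27.2 ± 4.35 at the mid and 20.1 ± 3.74 at the low dose (0.42 ± 0.20), while its relative Cry1 had a difference of -0.14 ± 0.26 that turned sign in TPM without the factors. The repressors Nfil3 (-0.25 ± 0.48) and Bhlhe40 (-0.03 ± 0.34) had differences that turned sign as single libraries were left out. Ciart, another repressor, averaged 8.09 ± 1.66 at the mid and 4.72 ± 1.66 at the low dose (0.70 ± 0.32). Nr1d1 (REV-ERB alpha) averaged 91.5 ± 56.5 at the mid and 47.5 ± 38.4 at the low dose (1.09 ± 0.61). The PAR bZIP factor Tef averaged 87.6 ± 18.1 scaled TPM at the mid dose and 55.4 ± 12.3 at the low dose (0.65 ± 0.25). Its relative Dbp averaged 52.4 ± 42.6 at the mid and 27.8 ± 24.7 at the low dose (0.96 ± 0.68).

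The activators of the clock were mixed. Clock had a difference of -0.07 ± 0.10, which turned sign in TPM without the factors and with the GC trend removed, and Rora one of 0.15 ± 0.12. Cry1, Nfil3, Bhlhe40, Clock and Rora were picked after their values had been seen. Npas2 averaged 2.85 ± 0.725 scaled TPM at the mid dose and 5.02 ± 1.73 at the low dose (-0.61 ± 0.23, adjusted p 0.282). Bmal1 averaged 8.55 ± 3.39 at the mid and 11.8 ± 3.79 at the low dose (-0.45 ± 0.34, adjusted p 0.637). The median of the list was 0.13 without the 3 libraries and 0.27 without mid-dose replicate 1. The hour of day at which each lung was taken is not given in the sources used here, and its part was not tested.

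Of 20 immediate early genes 14 were higher (median 0.12), 5 of them at an unadjusted p under 0.05 (6.53% over all genes). The members named here and Klf4 above are a part of the list. They include all 5 of these, so they are not a cross-section of it. Jund, a member of the AP-1 family, had 246, 281, 248, 267 and 293 scaled TPM at the mid dose, against 233, 199, 221, 168 and 197 at the low dose without overlap (0.40 ± 0.14, adjusted p 0.251). The Jund difference was 0.225 with the GC trend removed and 0.46 with the length trend removed. Jun averaged 163 ± 20 at the mid and 129.5 ± 8.03 at the low dose (0.32 ± 0.11, adjusted p 0.248), with overlap between mid-dose replicate 1 and low-dose replicate 2. Of the other AP-1 genes, Fosl1 averaged 3.92 ± 2.54 scaled TPM at the mid dose and 1.21 ± 0.491 at the low dose (1.06 ± 0.42), Fosb 2.65 ± 0.989 at the mid and 1.68 ± 0.714 at the low dose (0.45 ± 0.21) and Fos 30.9 ± 6.41 at the mid and 38.6 ± 10.6 at the low dose (-0.29 ± 0.41). The nuclear receptor Nr4a1 averaged 46.5 ± 24.3 at the mid and 31.3 ± 5.42 at the low dose (0.42 ± 0.39), Myc 21.98 ± 7.83 at the mid and 16.1 ± 3.495 at the low dose (0.39 ± 0.26) and Ier3 309 ± 185 at the mid and 325 ± 94.7 at the low dose (-0.24 ± 0.47). Of 15 glucocorticoid response genes 12 were higher (median 0.20), while the metallothionein Mt2 averaged 546 ± 474 scaled TPM at the mid dose and 818 ± 522 at the low dose. Its relative Mt1 averaged 465 ± 307 at the mid and 631 ± 353 at the low dose.

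Most members of the xenobiotic list were higher and the antioxidant list was split, with none past the adjusted threshold. Of 18 aryl hydrocarbon receptor and xenobiotic genes 14 were higher (median 0.15), 1 of them at an unadjusted p under 0.05 (6.53% over all genes). Cyp2f2, a club cell cytochrome, averaged 672 ± 194 scaled TPM at the mid dose and 639 ± 270.5 at the low dose (0.13 ± 0.44), and Aldh1a1, an aldehyde dehydrogenase, 571 ± 130.0 at the mid and 565 ± 160.3 at the low dose (0.03 ± 0.30). Of 20 NRF2 genes 12 were higher and 8 lower (median 0.06, and -0.01 without the 3 libraries with low Cxcl2). At an unadjusted p under 0.05 there were 0 higher (6.53% over all genes) and 1 lower (5.82% over all genes). Sod1, superoxide dismutase, averaged 943 ± 139.9 scaled TPM at the mid dose and 1102 ± 92.1 at the low dose (-0.23 ± 0.11, adjusted p 0.415). Prdx1, a peroxiredoxin, averaged 431 ± 26.1 at the mid and 522 ± 61.3 at the low dose (-0.27 ± 0.12, adjusted p 0.365). Slc7a11, a cystine transporter picked after its values had been seen, averaged 13.4 ± 4.501 at the mid and 14.01 ± 5.27 at the low dose (-0.02 ± 0.34).

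Lipid synthesis genes were higher in 16 of 19 (median 0.19), 4 of them at an unadjusted p under 0.05 (6.53% over all genes). The desaturase Scd1 averaged 273 ± 49.6 scaled TPM at the mid dose and 286 ± 88.5 at the low dose. Scd2 averaged 148 ± 31.2 at the mid and 122 ± 27.7 at the low dose. The regulators Srebf2 and Srebf1 were picked after their values had been seen: Srebf2 averaged 76.5 ± 12.2 scaled TPM at the mid dose and 58.8 ± 4.58 at the low dose (0.36 ± 0.11, adjusted p 0.224). Srebf1 averaged 41.5 ± 5.38 at the mid and 32.3 ± 4.27 at the low dose (0.35 ± 0.11, adjusted p 0.232). Cell cycle genes were lower in 19 of 21 (median -0.26, and -0.10 in TPM without the factors). The replication protein Pcna averaged 86.9 ± 6.01 at the mid and 106 ± 12.4 at the low dose, and Mcm7 23.98 ± 1.72 at the mid and 23.5 ± 2.02 at the low dose. Tyms, thymidylate synthase, picked after its values had been seen, averaged 8.45 ± 2.52 at the mid and 14.5 ± 3.44 at the low dose (-0.72 ± 0.25, adjusted p 0.256). Chaperones were lower in 18 of 23 (median -0.15, and 0.03 in TPM without the factors). Hspa8 averaged 928 ± 132 at the mid and 1060.3 ± 432 at the low dose, and Hsp90ab1 731 ± 88.9 at the mid and 752 ± 162 at the low dose.

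Lymphoid, dendritic and blood markers held no gene without overlap (1.71% higher and 1.55% lower over all genes). At those shares, lists of this size would hold few or none. Dendritic cell markers were higher in 4 and lower in 8 (median -0.04). Bst2 averaged 246 ± 123 scaled TPM at the mid dose and 351 ± 162 at the low dose, and Irf8 33.2 ± 10.8 at the mid and 39.9 ± 16.6 at the low dose. T and NK cell markers were higher in 4 and lower in 14 (median -0.13). Gzma averaged 68.3 ± 41.1 at the mid and 67.9 ± 24.4 at the low dose, and Thy1 26.3 ± 4.41 at the mid and 28.1 ± 6.21 at the low dose. B and plasma cell markers were higher in 3 and lower in 10 (median -0.15). Xbp1 averaged 218 ± 52.3 at the mid and 241 ± 41.1 at the low dose, and Sdc1 147 ± 12.8 at the mid and 132 ± 15.1 at the low dose. The medians of these 3 lists were above 0 in TPM without the factors. Erythroid markers were higher in 4 and lower in 6 (median -0.27). The globin Hbb-bs averaged 6451 ± 1893 at the mid and 8336 ± 3013 at the low dose, and Hba-a2 6133 ± 1719 at the mid and 7469 ± 2422 at the low dose; near-identical globin paralogs make single values uncertain. Platelet markers were higher in 6 and lower in 5 (median 0.10). Pf4 averaged 54.7 ± 20.98 at the mid and 86.6 ± 35.1 at the low dose, and Ppbp 15.6 ± 2.77 at the mid and 17.7 ± 7.65 at the low dose. Mast cell, basophil and eosinophil markers were higher in 1 and lower in 6 (median -0.30). Hdc averaged 66.6 ± 12.98 at the mid and 73.6 ± 11.97 at the low dose, and Kit 42.5 ± 10.9 at the mid and 39.8 ± 7.31 at the low dose.

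Markers of neighbouring tissues differed between single libraries. Cardiac markers were higher in 11 of 12 (median 0.44, and 0.15 without mid-dose replicate 4), and their summed scaled TPM ran from 416 to 1751 at the mid dose and from 398 to 599 at the low dose. Myl7 averaged 207 ± 147 at the mid and 151 ± 32.6 at the low dose, and Actc1 129 ± 74.4 at the mid and 90.1 ± 21.4 at the low dose. Skeletal muscle markers were lower in 6 of 8 (median -0.94, and 0.09 without low-dose replicate 5), with Acta1, skeletal actin, at 0.239, 0, 0.393, 0.221 and 0.367 scaled TPM at the mid dose, against 0.29, 0.106, 0.324, 0.159 and 476 at the low dose and Mb, myoglobin, at 48.6 ± 52.2 at the mid and 48.8 ± 53.2 at the low dose. Adipocyte markers were higher in 2 and lower in 8 (median -0.17). Cfd averaged 120.2 ± 94.1 at the mid and 172 ± 109 at the low dose, and Fabp4 87.1 ± 48.2 at the mid and 145 ± 92.95 at the low dose. Neural and Schwann cell markers were higher in 6 and lower in 2 (median 0.13). Pmp22 averaged 340.4 ± 27.02 at the mid and 306 ± 43.5 at the low dose, and Uchl1 63.95 ± 22.9 at the mid and 50.01 ± 8.52 at the low dose. Lymph node and thymus markers were higher in 1 and lower in 4 (median -0.11). The chemokine Ccl21a averaged 116 ± 52.2 at the mid and 95.7 ± 52.01 at the low dose, and Cxcl13 60.3 ± 50.5 at the mid and 82.99 ± 63.4 at the low dose. The part of these tissues in the differences above was not tested. Of the sex-linked list, Xist and its antisense partner Tsix were tested, with Tsix at 0.663 ± 0.127 at the mid and 0.987 ± 0.564 at the low dose, and since the counting is not stated to use strand, reads of the pair cannot be told apart.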

How the data were processed

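The deposited table holds TPM for 78298 genes in 24 libraries; per the labels' protocols, lung RNA was extracted with TRIzol, depleted of ribosomal RNA and sequenced in paired reads. HISAT2, StringTie, RSEM, DESeq2 and the build GRCm39 are named in the submitters' processing notes, without versions or roles, and how the authors made the TPM from the reads is not given in the sources used here. TPM carries no read number, so no count test or counting interval was possible.

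TPM was divided by median-of-ratios factors over 18673 genes above 0 in every library. Genes at 1 TPM or more in 4 or more libraries (17823) were tested on log2(scaled TPM + 1) with limma 3.58.1 in R 4.3.3 (trended, robust), 5 group means over 24 libraries, and Benjamini-Hochberg adjustment over all genes tested. Library measures were compared by two-sided exact permutation tests that ran through all 252 assignments (numpy 2.4.6). Lengths and GC content came from the GENCODE M21 annotation (GRCm38), matched by gene ID. The model was tested on simulated data. Groups follow the labels. The comparison, the 43 gene lists and the genes were chosen with earlier results of these data known. The named genes are the 6 smallest p in each direction, since no gene was called, and the 2 most abundant members of each list. Also named are some members of the basement membrane, clock and immediate early lists, and genes described as picked after their values had been seen. Predicted genes and antigen receptor segments were not named, and 1 gene under this rule is not reported here. Alternatives covered scaling, pseudocount, filter, libraries used, library weights, the replicate block, and length and GC trends.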

Additional observations from a re-analysis of the deposited data

Results flagged for a closer look

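In a group of 5 lungs, a library was singled out when its gap to the nearest other, divided by the range of the group, exceeded Dixon's critical value of 0.71. Of 304 groups of values tested, 19 were singled out, and chance alone gives about 1 in 20.

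In mid-dose replicate 1, 2 genes stood apart. Hbb-bs had 9758.5 scaled TPM there, against 4939.7 to 5961.9 in the other 4 lungs. Hba-a2 had 9197.9 scaled TPM there, against 5200.5 to 5571.6 in the other 4 lungs.

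In mid-dose replicate 3, 3 genes stood apart. Gbp2 had 471.4 scaled TPM there, against 32.87 to 62.23 in the other 4 lungs. Cd74 had 2188.4 scaled TPM there, against 1373.7 to 1517.8 in the other 4 lungs. Irf8 had 52.17 scaled TPM there, against 25.85 to 30.79 in the other 4 lungs.

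In mid-dose replicate 4, 5 genes stood apart. Hsp90ab1 had 887.7 scaled TPM there, against 672.3 to 712.1 in the other 4 lungs. Scd1 had 359.1 scaled TPM there, against 236.5 to 270 in the other 4 lungs. Myl7 had 467.5 scaled TPM there, against 121.7 to 177.8 in the other 4 lungs. Mb had 141.1 scaled TPM there, against 14.11 to 33.87 in the other 4 lungs. Cfd had 282.8 scaled TPM there, against 44.2 to 109.3 in the other 4 lungs.

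In mid-dose replicate 5, 1 gene stood apart. Tuba1a had 716.4 scaled TPM there, against 471.6 to 539 in the other 4 lungs.

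In low-dose replicate 1, 3 genes stood apart. Ccl3 had 1.881 scaled TPM there, against 426.2 to 458.3 in the other 4 lungs. Nfkbia had 95.36 scaled TPM there, against 293.1 to 368.4 in the other 4 lungs. Cxcl2 had 0.5988 scaled TPM there, against 281.5 to 336.3 in the other 4 lungs.

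In low-dose replicate 4, 3 genes stood apart. Gbp2 had 527.7 scaled TPM there, against 49.3 to 186.8 in the other 4 lungs. Gsdmd had 97.52 scaled TPM there, against 47.43 to 61.51 in the other 4 lungs. Fabp4 had 310 scaled TPM there, against 85.79 to 110.5 in the other 4 lungs.

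In low-dose replicate 5, 2 genes stood apart. Mb had 142.6 scaled TPM there, against 15.3 to 40.18 in the other 4 lungs. Acta1 had 475.8 scaled TPM there, against 0.106 to 0.3237 in the other 4 lungs.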

How the results depend on the processing

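TPM without the factors, the fit to the 10 libraries alone and the fit without the 3 libraries with low Cxcl2 called 1 gene higher each (Klf2, ENSMUSG00000131287 and ENSMUSG00000131095 in that order) and 0 lower, and library quality weights called 192 higher and 249 lower. The other alternatives called 0 in both directions, with 1404 genes at an unadjusted p under 0.05 without mid-dose replicate 4 and 2584 without low-dose replicate 1 as the ends of the range over single libraries left out. Same-numbered libraries of the doses share a number and no stated source: their deviations correlated at 0.57, 0.13, -0.06, -0.34 and 0.22, and the fit with a replicate block gave 0 calls, with 2220 genes at an unadjusted p under 0.05. Of 146 named genes, 106 kept their sign under all 23 alternatives, and 22 were called in at least 1 of them. Of 43 list medians, 29 kept their sign, and that of airway secretory markers was near 0 and took both signs. The sign turned in TPM without the factors for B and plasma cells (0.016), LPS sensing and NF-kB (0.123), T and NK cells (0.017), dendritic cells (0.079) and chaperones (0.027). The sign turned without the 3 libraries for LPS sensing and NF-kB (0.129), NRF2 (-0.011) and neutrophils (0.179). The sign turned with the GC trend removed for lymph node and thymus (0.002). As single libraries were left out it turned for B and plasma cells (-0.23 to 0.043), LPS sensing and NF-kB (-0.168 to 0.072), MHC class I (-0.381 to 0.024), adipocytes (-0.535 to 0.163), ciliated cells (-0.014 to 0.309), lymph node and thymus (-0.245 to 0.003), skeletal muscle (-1.166 to 0.087) and type II alveolar cells (-0.033 to 0.188). The library measures kept their side of the threshold as each library was left out. Depth is unknown, so what it limits could not be set. The cause was not tested for any turn of sign below, and values are log2 differences. In TPM without the factors the sign turned for Nfkbia (0.067), Ctnnb1 (0.094), mt-Atp8 (0.069), Hspa8 (0.065), Hsp90ab1 (0.153), Scd1 (0.157), Cd74 (0.064), H2-K1 (0.05), Apoe (0.14), Gzma (0.066), Thy1 (0.089), Xbp1 (0.016), Tuba1a (0.154), Acta2 (0.1), Tagln (0.04), Msln (0.011), Ppbp (0.096), Hdc (0.025), Xist (0.098), Slc7a11 (0.141), Clock (0.092), Cry1 (0.021), Bhlhe40 (0.145). With the GC trend removed the sign turned for mt-Atp8 (0.057), Mcm7 (-0.026), Sftpc (-0.021), Mb (-0.058), Ppbp (0.025), Xist (0.035), Slc7a11 (0.099), Clock (0.048). With the length trend removed the sign turned for mt-Atp8 (0.128), Apoe (0.056), Gzma (0.039), Tuba1a (0.027), Ppbp (0.067), Kit (-0.008). With the trend on median transcript length removed the sign turned for mt-Atp8 (0.059), Hsp90ab1 (0.02), Scd1 (0.003), Thy1 (0.017). With library quality weights the sign turned for H2-K1 (0.013), Apoe (0.062), Gzma (0.044), Sftpc (-0.024). Without the 3 libraries with low Cxcl2 the sign turned for Cd14 (0.099), Nfkbia (0.147), Aldh1a1 (-0.018), Ier3 (0.193), Scd1 (0.046), H2-K1 (0.076), Lcn2 (0.19), S100a9 (0.169), Gzma (0.213), Cbr2 (-0.027), Tuba1a (0.00), Sftpc (-0.192), Cav1 (-0.004), Myl7 (-0.164), Mb (-0.585), Ppbp (0.035), Kit (-0.034), Cxcl13 (0.071), Bhlhe40 (0.126). As single libraries were left out the sign turned for Acta1 (-2.165 to 0.023), Acta2 (-0.229 to 0.082), Aldh1a1 (-0.118 to 0.171), Apoe (-0.175 to 0.169), Bhlhe40 (-0.274 to 0.167), Cav1 (-0.023 to 0.127), Cbr2 (-0.114 to 0.337), Cyp2f2 (-0.076 to 0.325), Gzma (-0.401 to 0.144), H2-K1 (-0.287 to 0.046), Hsp90ab1 (-0.101 to 0.069), Hspa8 (-0.281 to 0.077), Ier3 (-0.515 to 0.046), Kit (-0.032 to 0.25), Mb (-0.485 to 0.519), Mcm7 (-0.005 to 0.075), Myl7 (-0.076 to 0.407), Nfil3 (-0.569 to 0.048), Nfkbia (-0.475 to 0.208), Ppbp (-0.325 to 0.116), Scd1 (-0.213 to 0.118), Sftpc (-0.246 to 0.353), Slc7a11 (-0.253 to 0.097), Thy1 (-0.155 to 0.005), Tppp3 (-0.061 to 0.353), Tuba1a (-0.124 to 0.033).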

Other observations

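Genes of Notch signalling, which passes between endothelial cells and pericytes, lay higher at the mid dose in 44 of 59 tested members, with a median difference of 0.19 and 11 members free of overlap (1.71% over all genes). Notch4, an endothelial receptor, averaged 49.6 ± 5.16 scaled TPM at the mid dose and 27.7 ± 5.96 at the low dose (SD, n = 5 each), a difference of 0.84 ± 0.23 (adjusted p 0.224, limma). The ligand Jag1 averaged 14.4 ± 1.41 scaled TPM at the mid dose and 10.6 ± 0.95 at the low dose (0.40 ± 0.15, adjusted p 0.278), and the transcriptional regulator Spen averaged 14.1 ± 2.69 at the mid and 8.81 ± 1.55 at the low dose (0.62 ± 0.19, adjusted p 0.224). The median of the pathway was 0.13 once the length trend was removed and 0.16 without the 3 libraries with low Cxcl2. It was not computed with the GC trend removed. Notch3, among the 11, is long and GC-rich (8016 nt, 59.6% GC), and 129 of 1353 long and GC-rich genes were higher without overlap. The part of length and GC content in the count of 11 was not tested. These pathways and genes were picked after their values had been seen.

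Among 297 pathways with 20 or more tested genes, the lowest medians belonged to the ribosome (-0.37, 126 of 129 genes lower) and oxidative phosphorylation (-0.30, 110 of 125 lower), and the highest to ECM-receptor interaction (0.21, 52 of 63 higher). In that pathway the integrin subunit Itgb4 averaged 11.2 ± 2.76 scaled TPM at the mid dose and 6.56 ± 1.01 at the low dose (0.67 ± 0.22, adjusted p 0.236), and dystroglycan, Dag1, averaged 112 ± 12.2 at the mid and 85.9 ± 8.58 at the low dose (0.37 ± 0.13, adjusted p 0.248), both free of overlap. By gene class, the median difference was 0.01 over 14234 protein-coding genes, -0.05 over 2726 lncRNA genes and -0.16 over 180 immunoglobulin V segments.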
